A study of Mus musculus with 12 samples.

Results

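The H3K4 methyltransferase complexes were examined through 10 of their genes: the catalytic subunits Setd1a, Setd1b, Kmt2a, Kmt2b, Kmt2c and Kmt2d, the shared core subunits Ash2l, Wdr5 and Rbbp5, and Men1, which encodes menin. All 10 matched a entry among the 21887 protein-coding genes that RefSeq lists for mouse assembly GRCm38.p6, whose coordinates are those of mm10. A peak was counted for a member when its midpoint lay inside the gene or within 5 kb of either end. By this rule the members held 9 of 5464 peaks of the H3K4me3 list, 1 of 2909 peaks of the WT p53 list and 1 of 1101 peaks of the K17KO p53 list.

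The peaks come from chromatin immunoprecipitation sequencing of back skin of mice aged 8 to 10 weeks under a protocol of 5 Gy of ionizing radiation. The labels give 6 groups of 2 samples, for T0 and 6 h each of 3 kinds: trimethylated histone H3 lysine 4 (H3K4me3) from Wild type (WT) mice, p53 from Wild type mice, and p53 from K17KO mice. Ionizing radiation is the labelled treatment of all 12 samples, T0 included. The labels do not say what K17KO stands for, how it was made, or whether a group's samples are separate animals. Each list is named by its antibody, and 1 of the p53 lists by K17KO as well. The histone list is named H3K4 only, so its trimethyl mark and WT genotype are inferred from the sample labels. The WT label of the other p53 list is likewise inferred, and T0 cannot be told apart from 6 h in any list. No list has replicates, so no value has a replicate error and no test between genotypes or times was possible.

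These complexes, related to yeast COMPASS, add methyl groups to lysine 4 of histone H3, and the trimethylated form marks promoters of active genes. Setd1a and Setd1b carry most bulk trimethylation, Kmt2a and Kmt2b act at selected promoters together with menin, and Kmt2c and Kmt2d mainly place the monomethyl mark at enhancers. Wdr5, Rbbp5 and Ash2l form the core that activates the catalytic subunits. p53 is the transcription factor that DNA damage stabilises.

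Peaks of the H3K4me3 list lay at 6 of the 10 members, namely Setd1b, Kmt2a, Kmt2c, Kmt2d, Wdr5 and Men1, and at 23.9% of all protein-coding genes under the same rule. A p53 peak lay at 1 member in each p53 list, Ash2l in WT (6.75% of all protein-coding genes) and Men1 in K17KO (3.79%). Setd1a, Kmt2b and Rbbp5 had no peak in any list, and Men1 was the 1 member with peaks of more than 1 antibody. Longer genes have more room for a peak, and the members ran from 5.92 kb (Men1) to 227 kb (Kmt2c). Among the 7 members of 20 to 50 kb, 3 had an H3K4me3 peak, 1 a WT p53 peak and 0 a K17KO p53 peak. Among all 5094 protein-coding genes of that length the shares were 26.1%, 5.59% and 3.51%.

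**Figure D1:**
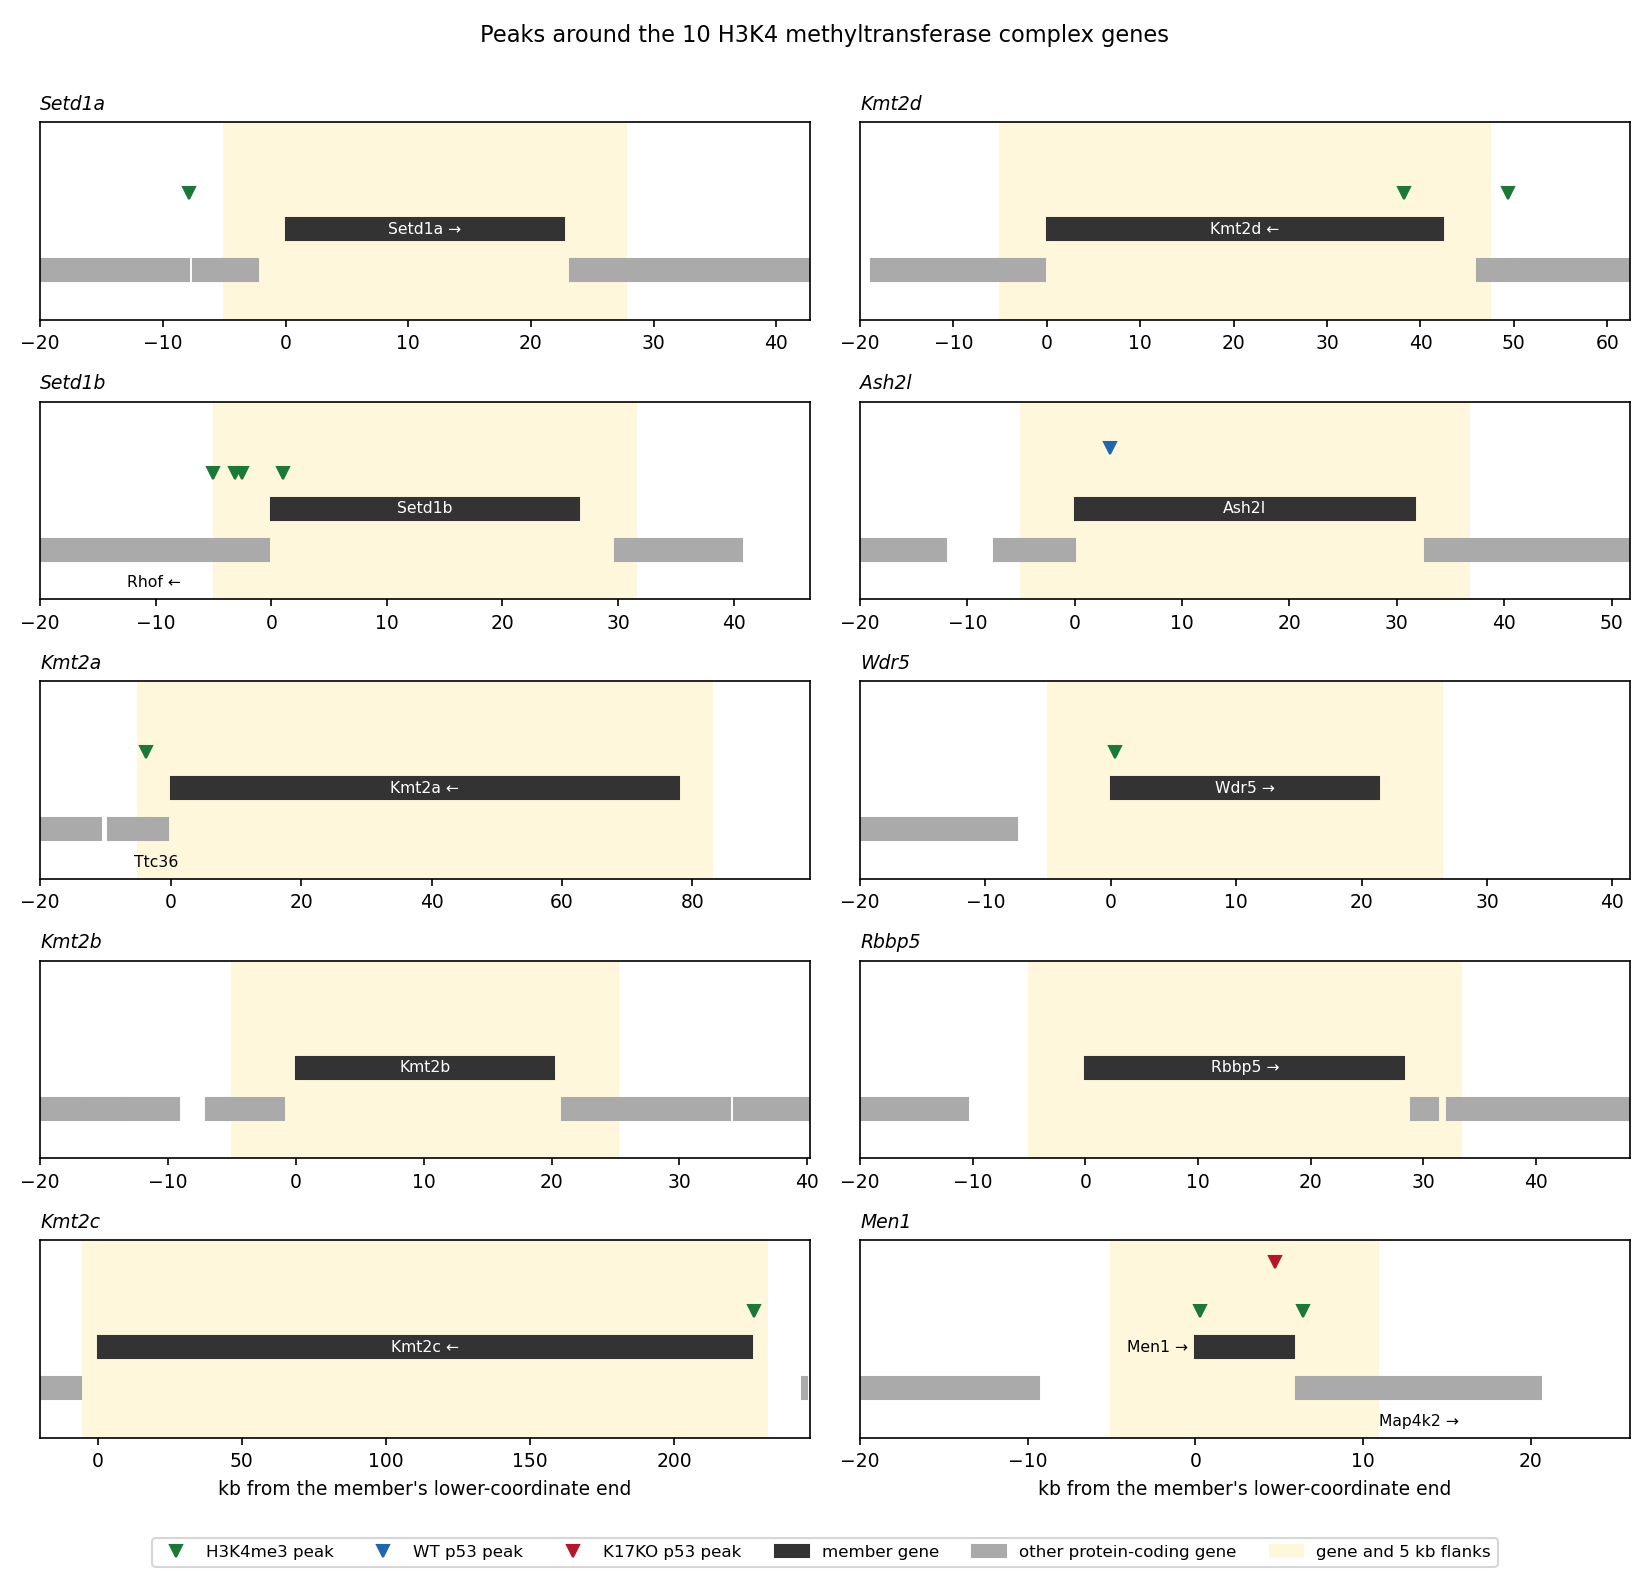
Peak midpoints (triangles) along each of the 10 members (dark bars) and the other protein-coding genes around it (grey bars), with the horizontal axis in kb from the lower-coordinate end of the member and a scale of its own in each panel; shading marks the gene with 5 kb on either side, and arrows show the direction of transcription where the RefSeq promoter table gives it. H3K4me3 triangles fall in the shading of 6 members, with 3 at Setd1b and 2 at Men1, and each p53 list has 1 triangle.

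Of the catalytic subunits of the SET1 branch, Setd1b had 3 H3K4me3 peaks and Setd1a none. The Setd1b peak inside the gene, at chr5:123142936-123143202 (mm10), lay 1029 bp from its lower-coordinate end. It had a fold enrichment of 1.55 over the caller's background as the authors deposited it, which corresponds to 153 fragments at the summit (95% Poisson interval 130 to 179) over a background of 98.2. The other 2, at chr5:123138747-123139062 (1.59-fold, 232 fragments over 146) and chr5:123139365-123139602 (1.72-fold, 173 over 99.9), lay 3136 and 2557 bp outside Setd1b. Both were inside the neighbouring gene Rhof, which encodes a small GTPase and whose span ends 231 bp from that of Setd1b. Rhof is on the minus strand, and they lay 2903.5 and 2324.5 bp inside its upper-coordinate end, which is its 5′ end. The Rhof start in the promoter table is farther inside the gene, and they lay 6276 and 6855 bp upstream of that start. Setd1a, on chromosome 7 from 127777389 to 127800122, had its nearest H3K4me3 peak 7.89 kb upstream (1.86-fold), 314 bp upstream of the start of Orai3, a calcium channel subunit gene.

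In the MLL1 and MLL2 branch the H3K4me3 peak counted for Kmt2a did not lie in Kmt2a. It was at chr9:44799490-44799776, 3722 bp beyond the 3′ end of the gene and inside Ttc36, 386 bp upstream of the start of Tmem25. Its fold enrichment was 1.43, from 126 fragments (105 to 150) over 87.9, and its q-value of 0.0609 was above 0.01. The annotated start of Kmt2a was 81.7 kb away from it, and no peak of the list lay closer to that start. Kmt2b, on chromosome 7 from 30568855 to 30589056, had its nearest H3K4me3 peak 140 kb away, inside Tmem147.

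Men1 had an H3K4me3 peak near each end. The first, at chr19:6335084-6335402, lay 264 bp downstream of the outermost of the 3 starts that RefSeq gives for the gene. With 194 fragments (168 to 223) over 153 its fold enrichment of 1.26 was the lowest of the members' 9 peaks, its q-value was 0.439, and 98.6% of the list had a higher fold. The second, at chr19:6341189-6341577, was 489 bp beyond the 3′ end of Men1 and inside Map4k2, a kinase gene, 223 bp downstream of the Map4k2 start. It had 192 fragments (166 to 221) over 115 and a fold of 1.66. So of the peaks counted for Men1, the one at the start of the next gene had the higher fold. Their fragments were nearly equal, at 194 and 192, and the folds differed through the backgrounds of 153 and 115. The higher fold therefore does not show that the mark was weaker at the Men1 start.

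Both genes of the MLL3 and MLL4 branch had 1 H3K4me3 peak. The Kmt2c peak, at chr5:25499164-25499534, lay outside every protein-coding gene, 566 bp upstream of the Kmt2c start. Its 240 fragments (211 to 272) over 160 were the most of the 9 peaks, and its fold was 1.498. The Kmt2d peak, at chr15:98869738-98870017, was inside the gene and 1328 bp downstream of its start in the promoter table. Its 100 fragments (81.4 to 122) over 61.9 were the fewest, and its fold was 1.61.

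Among the core subunits Wdr5, a WD-repeat protein that docks the complex, had the single H3K4me3 peak. It was at chr2:27515283-27515608, inside the gene and 299 bp downstream of the start, with 229 fragments (200 to 261) over 161 and a fold of 1.42. Rbbp5 had its nearest H3K4me3 peak 161 kb away, inside Nuak2, and Ash2l 31.1 kb away, inside Bag4.

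**Figure D2:**
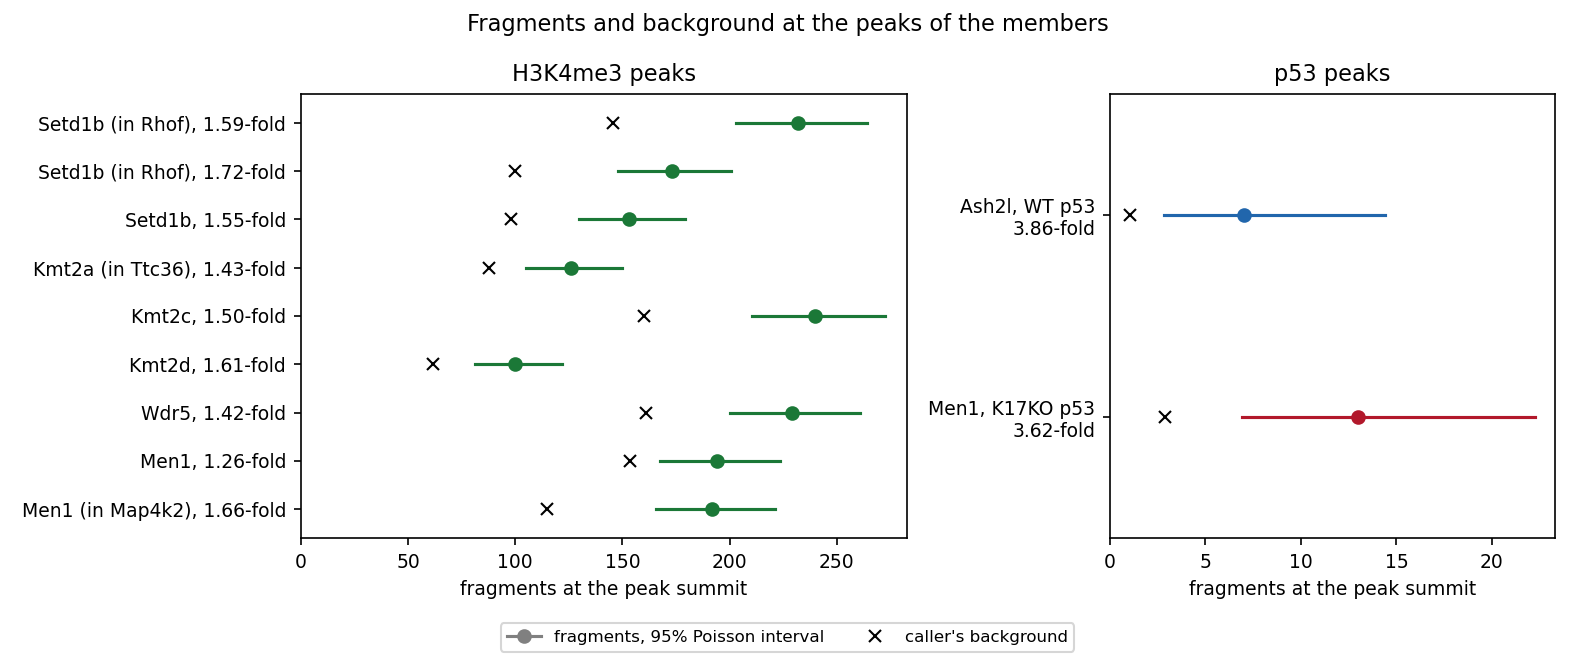
Fragments at the summit of each peak counted for a member (circles, with 95% Poisson intervals for counting error) and the background of the peak caller at the same place (crosses), for 9 H3K4me3 peaks on the left and 2 p53 peaks on the right, on separate horizontal scales. The H3K4me3 peaks rest on 100 to 240 fragments over backgrounds of 61.9 to 161, and the p53 peaks on 7 and 13 fragments.

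The members' H3K4me3 peaks had folds of 1.26 to 1.72, with a median of 1.55, against 1.66 in the whole list. Only 2 of the 9 exceeded that list median, the Setd1b peak of 1.72-fold and the Men1 peak of 1.66-fold, and both lay in a neighbouring gene. Their background had a median of 115 fragments against 90.7 in the whole list, and 7 of the 9 were above the latter. Of the list, 5311 peaks were on chromosomes with an entry in the promoter table. The 2934 of them within 1 kb of an annotated start had a median fold of 1.54 over a background of 122. The 2377 farther from one had 2.13 over 26.2. That table covers 17492 of the 21887 protein-coding genes, so some of the 2377 may lie at starts it does not list. The median fold and background of the members' peaks were thus near the medians of start-proximal peaks. The Setd1b and Kmt2d peaks themselves lay more than 1 kb from a listed start. No source used here names the control behind the H3K4me3 peaks, so a peak marks enrichment over an unknown control, and the lack of a peak does not show that the mark was absent.

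Of the 9 peaks counted, 4 lay inside a member, 4 inside the neighbouring genes Rhof, Ttc36 and Map4k2, and the Kmt2c peak in no protein-coding gene. Over all protein-coding genes, 71.8% of 6457 pairs of gene and H3K4me3 peak had the peak inside the gene, and 20.5% had it outside the gene and inside another. With peaks in a neighbouring gene set aside, 5 members kept a peak and Kmt2a did not. The share of all protein-coding genes under that rule was not computed, so this count has no background. Men1 kept only the peak with a q-value of 0.439.

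RefSeq promoter entries were matched for 7 members, Setd1a, Kmt2a, Kmt2c, Kmt2d, Wdr5, Rbbp5 and Men1, and not for Setd1b, Kmt2b and Ash2l. Of the 7, Kmt2c, Wdr5 and Men1 had an H3K4me3 peak midpoint within 1 kb of a start, and 17.3% of the 17492 protein-coding genes in that table did. Neither p53 list had a peak within 1 kb of the start of any of the 7, against 0.692% (WT) and 1.24% (K17KO) of genes. Around starts the list is asymmetric. Of the 3234 peaks within 3 kb of a protein-coding start, 84.4% were downstream of it, at a median of 292 bp. The Wdr5 and Men1 peaks lay in this downstream maximum, as did the peak at Map4k2, whereas the Kmt2c peak was upstream and the Kmt2d peak farther into the gene.

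**Figure D3:**
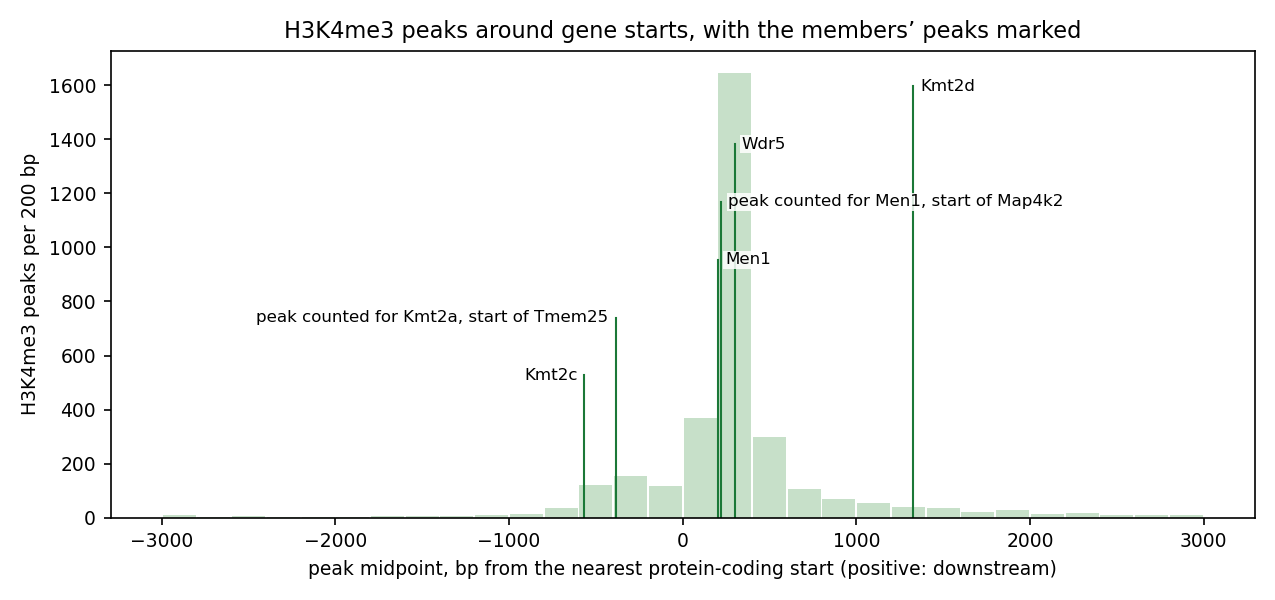
Number of H3K4me3 peaks (bars, 200 bp wide) by the distance of their midpoint from the nearest protein-coding start, in bp and positive downstream, with the members' peaks as labelled vertical lines whose height carries no value. The bar from 200 to 400 bp is the tallest with 1645 peaks and holds the Wdr5 peak at 299 bp and the Men1 peak at 204 bp, while the Kmt2c peak sits at -566 bp; the Setd1b peaks lie beyond the range of the axis.

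The sequences before the starts of Kmt2c, Wdr5 and Men1 are shown because peaks lie beside them. Those of Kmt2a and Rbbp5 are shown as examples of starts with no H3K4me3 peak within 1 kb. Setd1a and Kmt2d had none within 1 kb either, and their sequences are not shown. Each line is the 250 bases upstream of the outermost start on the gene's own strand, from RefSeq (GRCm38.p6), with CG dinucleotides in capitals. The CXXC domains of Kmt2a, Kmt2b and the SET1 subunit Cxxc1 bind unmethylated CG.
Kmt2c, chr5:25498784-25499033, minus strand: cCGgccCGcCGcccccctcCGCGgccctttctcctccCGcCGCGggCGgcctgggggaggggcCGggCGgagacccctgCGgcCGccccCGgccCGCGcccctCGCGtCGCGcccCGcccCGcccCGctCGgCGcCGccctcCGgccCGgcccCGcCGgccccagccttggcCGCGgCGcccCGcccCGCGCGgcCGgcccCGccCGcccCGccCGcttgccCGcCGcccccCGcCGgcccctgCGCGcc
Wdr5, chr2:27514897-27515146, plus strand: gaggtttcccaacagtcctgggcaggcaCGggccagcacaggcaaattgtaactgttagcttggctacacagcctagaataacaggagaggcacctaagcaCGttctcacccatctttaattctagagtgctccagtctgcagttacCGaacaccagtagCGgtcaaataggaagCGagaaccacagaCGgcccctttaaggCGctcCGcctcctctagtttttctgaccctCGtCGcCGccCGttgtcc
Men1, chr19:6334729-6334978, plus strand: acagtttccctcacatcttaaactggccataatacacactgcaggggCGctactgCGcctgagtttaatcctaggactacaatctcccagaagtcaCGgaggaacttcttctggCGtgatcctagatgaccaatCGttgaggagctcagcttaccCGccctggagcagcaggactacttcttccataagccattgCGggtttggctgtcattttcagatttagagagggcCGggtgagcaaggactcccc
Kmt2a, chr9:44881290-44881539, minus strand: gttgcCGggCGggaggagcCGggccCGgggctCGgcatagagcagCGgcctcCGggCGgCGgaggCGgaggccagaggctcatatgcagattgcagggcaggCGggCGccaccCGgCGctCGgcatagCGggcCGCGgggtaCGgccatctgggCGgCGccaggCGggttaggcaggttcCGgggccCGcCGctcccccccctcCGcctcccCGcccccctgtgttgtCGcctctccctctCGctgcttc
Rbbp5, chr1:132477117-132477366, plus strand: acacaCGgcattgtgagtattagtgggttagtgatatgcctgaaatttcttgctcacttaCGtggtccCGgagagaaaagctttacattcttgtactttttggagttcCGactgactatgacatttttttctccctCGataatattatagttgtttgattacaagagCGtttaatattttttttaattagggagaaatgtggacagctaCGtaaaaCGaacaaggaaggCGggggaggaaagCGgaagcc

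The Kmt2c stretch is almost wholly G and C, with 48 CG in the 250 bases, against 29 for Kmt2a, 12 for Wdr5, 10 for Rbbp5 and 8 for Men1. In the full window of 300 bases, which adds 50 after the start, Kmt2c had 56 CG, and 0.179% of 21263 protein-coding promoter windows had more. Kmt2a had 36, Setd1a 35, Kmt2d 27, Wdr5 22, Rbbp5 16 and Men1 11, and the median over all windows was 13. Across the genome, genes with an H3K4me3 peak within 1 kb of a start had a median of 23 CG and genes without one 10. The Men1 count is for its outermost start. The windows of its other starts, of which 1 is nearest the peak, had 16 each, the same as Rbbp5.

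**Figure D4:**
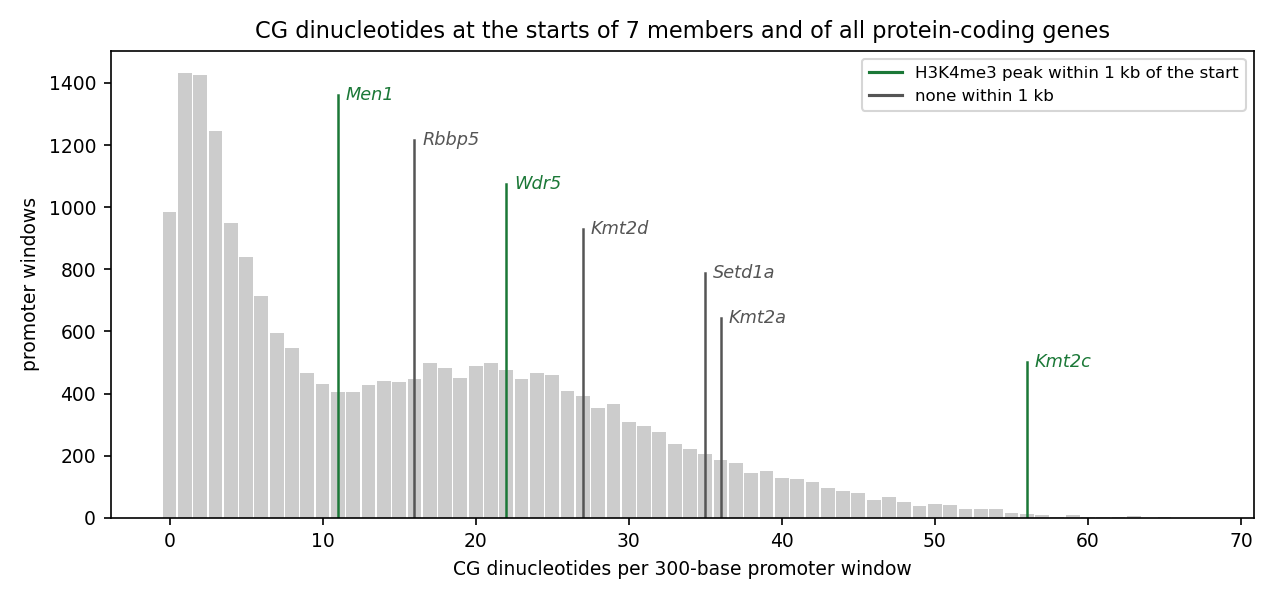
CG dinucleotides in the 300-base window of every protein-coding promoter entry (grey bars) and in those of 7 members (labelled lines, whose height carries no value), green where an H3K4me3 peak lay within 1 kb of the start. The green lines are at 11 (Men1), 22 (Wdr5) and 56 (Kmt2c), and the grey lines at 16 to 36.

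Short motifs were searched on both strands of the same windows, with overlapping matches counted. The p53 half-site consensus had no match in the windows of the 7 members and a match in 7.37% of all windows. GGGCGG, the core of GC boxes bound by Sp1, was in those of Kmt2c (12 matches), Kmt2a (5), Kmt2d (4), Wdr5 (2) and Men1 (1), and in 46.2% of all. CCAAT was in the Men1 window alone among the 7, against 38.2% of all windows. TATAAA was in none of the 7, against 12.6% of all. CATG, a palindrome that can form the centre of a p53 half-site, was in the Kmt2a and Kmt2d windows (1 each) and in 56.3% of all. These are matches of letters and not binding sites.

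Whether p53 occupied these genes was examined last. The WT p53 peak in Ash2l, at chr8:25819175-25819390, lay inside the gene, 3283 bp from its lower-coordinate end. It rested on 7 fragments (2.81 to 14.4) over a background of 1.07, which gives the deposited fold of 3.86 and a q-value of 0.110. In the WT list 58.3% of peaks had a higher fold, and 111 peaks share exactly this fold and p-value. Of 5 p53 target genes taken for reference, 4 had a WT peak and Mdm2 had none, its nearest being 73.5 kb away. Their peaks ranged from Bax, with 19 fragments and 0.653% of the list above it by fold, to Ccng1, with 10 fragments and 28.8% above it. In K17KO only Bax of the 5 had a peak. No H3K4me3 peak overlapped the Ash2l peak, and the nearest was 34064 bp away. In the whole WT list 0.963% of peaks overlapped one.

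The K17KO p53 peak in Men1, at chr19:6339608-6339898, lay inside the gene, 1141 bp from its 3′ end and 1407 bp upstream of the Map4k2 start. It had 13 fragments (6.92 to 22.2) over 2.87, a fold of 3.62 and a q-value of 0.0141. In that list 85.5% of peaks had a higher fold, and 18 peaks share exactly these values. The peak overlapped no H3K4me3 peak and was 1291 bp from the one in Map4k2. In the whole K17KO list 6.09% of peaks overlapped one. The labels give H3K4me3 samples from WT mice only, so K17KO p53 peaks are set here against the mark of another genotype. Neither p53 peak at a member overlapped a peak of the other genotype, as was the case for most peaks: 9 of the 2909 WT peaks (0.309%) overlapped a K17KO peak, and 9 of the 1101 K17KO peaks (0.817%) a WT peak. The nearest WT peak to Men1 was 223 kb away, and the nearest K17KO peak to Ash2l 5299 kb away.

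For the other members the nearest WT p53 peak lay from 39.2 kb (Kmt2c) to 1666 kb (Setd1a) away, and the nearest K17KO p53 peak from 27.8 kb (Kmt2b) to 5415 kb (Kmt2c). Medians over all 10 members were 183 kb in WT and 526 kb in K17KO, against 242 and 581 kb over all protein-coding genes. The lists differ in length and in how weak a peak they include, so these distances were not compared between genotypes. The lowest deposited −log10 q-value was 0.376 in the WT p53 list and 1.04 in the K17KO p53 list. That of the WT peak in Ash2l, 0.958, was below every value of the K17KO list. The same limit applies to the p53 peak counts, overlaps and reference genes given for both lists.

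Related genes were counted by the same rule. Of 12 further subunits 5 had an H3K4me3 peak, among them Cxxc1 (1.57-fold, 239 bp inside the gene), Hcfc2 (1.51-fold) and Ncoa6 (1.48-fold), and the 1 counted for Pagr1a lay in Mvp. Of 8 genes listed as other H3K4 methyltransferases 3 had one (Kmt2e, Setd7 and Smyd2). Of 6 H3K4 demethylases 3 had one (Kdm5a, Kdm5c and Kdm5b, the last with its peak in Mgat4e), and of 12 H3K4me3 readers 5. Across these 38 genes it was 42.1%. The list of methyltransferases of other histone lysines had one at 9 of 15 genes (60%), the share seen in the members. The 9 include Eed and Suz12, which are subunits of the complexes of Ezh1 and Ezh2 and not enzymes. The peak counted for Setdb2 lay in Cab39l. In the p53 lists these 38 genes had 4 with a WT peak and 3 with a K17KO peak, of which that for Ing4 lay in Zfp384, and the methyltransferases of other lysines had none.

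**Figure D5:**
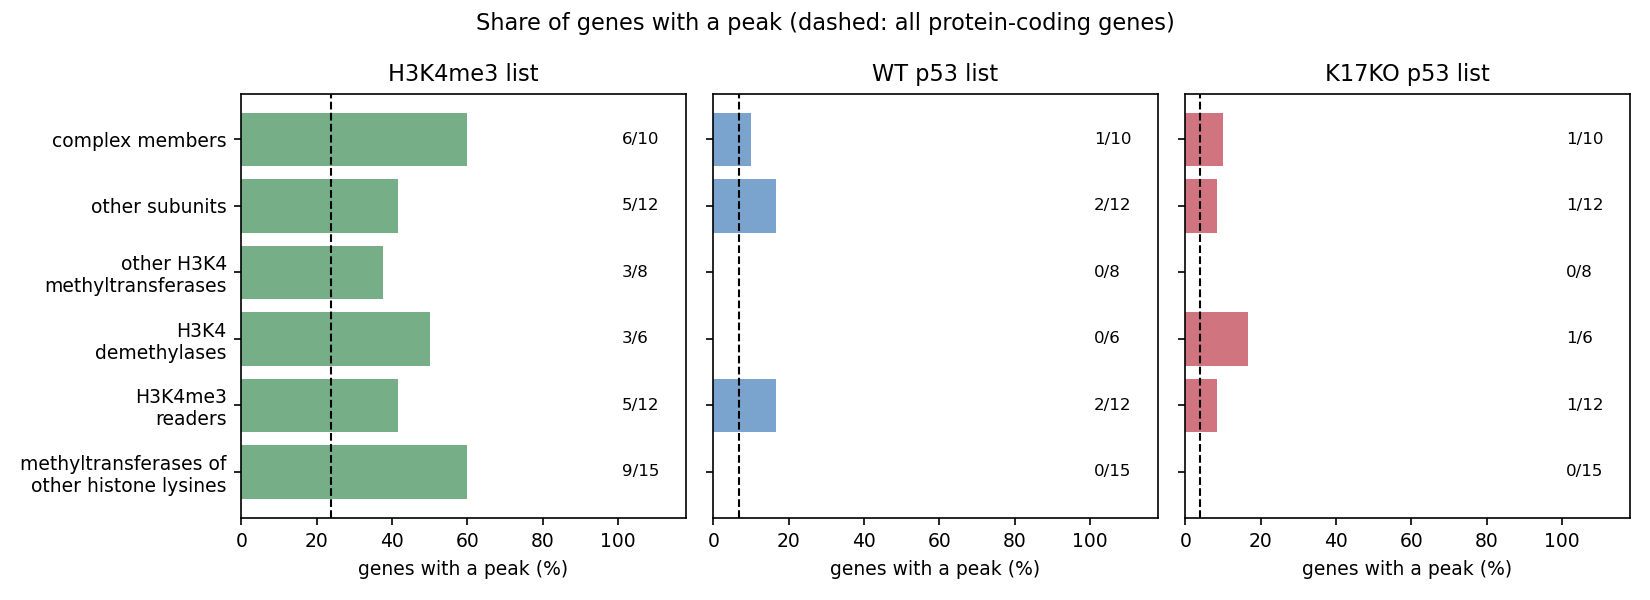
Share of genes with a peak inside the gene or within 5 kb of an end (bars, percent, with the count at the right) for the 10 members and 5 related gene lists in each peak list; the dashed line is the share of all protein-coding genes, 23.9%, 6.75% and 3.79%. In the H3K4me3 list the members and the methyltransferases of other histone lysines, Eed and Suz12 included, both stand at 60%. In the p53 lists no bar stands for more than 2 genes.

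The labelled tissue could not be checked well with these lists. Of 25 markers of skin cell types 5 had an H3K4me3 peak, which is 20% against 23.9% of all protein-coding genes. These were the keratin genes Krt1, Krt10 and Krt15, the hair follicle gene Lhx2, and Pmel, whose peak also lay in Rab5b. The other 20 had none, among them the keratinocyte genes Krt5, Krt14, Trp63, Lor and Ivl, the hair follicle genes Sox9, Krt17 and Lgr5, the melanocyte genes Mlana and Tyr, and all fibroblast, endothelial and immune markers listed. None of 3 muscle markers and 4 genes of other organs had one.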

How the data were processed

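The authors deposited 3 peak lists with 10 columns and no header. Bowtie2 2.2.5, SAMtools 1.7, MACS2 2.1.2 and mm10 are named, with no role or order, per the submitters' processing notes. Which control, threshold and libraries were used is not stated. The deposited score is 10 times the deposited −log10 p without decimals. The deposited fold enrichment is a ratio of pileup to background. The deposited −log10 q-value was used for thresholds, and the deposited summit offset was not used. Fragments and background were solved from the fold, read as (fragments + 1)/(background + 1), and the deposited −log10 p, read as an upper Poisson tail. Whole fragments matched within 0.001 in −log10 p for 100.0% of peaks. Median fragments per peak were 148 (H3K4me3), 7 (WT p53) and 11 (K17KO p53), and total library depth is unknown. Intervals are exact Poisson at 95% and cover counting error only.

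Computation used Python 3.11.15, pandas 2.3.3 and scipy 1.17.1, tested on simulated data. Starts came from the RefSeq promoter table. No genome sequence was used, so peaks have no sequences here. All members are named, as is each protein-coding gene holding a peak counted for a member. The members and lists were chosen with earlier results of these data known, and the length class and start window were set after the data were seen.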

Additional observations from a re-analysis of the deposited data

How the results depend on the processing

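The count of members with an H3K4me3 peak stayed between 4 (inside the gene only, 18.5% of all protein-coding genes) and 7 (20 kb flanks, which added Setd1a, 32.9%) in 8 of 9 alternatives. It was 2 (Setd1b and Men1) among the upper 50% of peaks by fold, where 10.8% of all genes had one. Both peaks behind that count lay in a neighbouring gene, Rhof and Map4k2. At q-values up to 0.1 or 0.01 Men1 was likewise counted only through its peak in Map4k2. The 9 H3K4me3 peaks became 6 with 1 kb flanks and 12 with 20 kb flanks. Both WT p53 counts, which rest on the Ash2l peak, were 0 at q-values up to 0.1 (4.07% of all genes) or 0.01 (0.822%), and the count of members was 0 in the upper 50% by fold (3.58%). Both K17KO p53 counts, which rest on the Men1 peak, were 0 at q-values up to 0.01 (2.77%), and the count of members was 0 in the upper 50% by fold (1.91%). These losses follow from the q-value and fold of the single peak behind each count. Window and assignment changes left both p53 counts of members at 1. The overlaps with H3K4me3 were also 0 when 50% of the p53 peak had to be covered and when midpoints had to lie within 500 bp. No paired analysis was possible because the lists name no library or replicate. With 7 and 13 fragments, the p53 peaks at members have wide counting intervals.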

Other observations

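Among the other subunits, Hcfc2, a host cell factor gene, had a WT p53 peak and an H3K4me3 peak that overlapped by 166 bp. Their midpoints lay 428 and 228 bp downstream of the Hcfc2 start. The WT p53 peak rested on 7 fragments over 0.906, with a fold of 4.20 and a q-value of 0.0961. In the WT list 260 peaks share exactly this fold and p-value. Bod1, which encodes a regulator of chromosome biorientation, had a peak in both p53 lists, but 3659 bp apart. The WT peak (3.51-fold, 6 fragments) was near the lower-coordinate end of the gene and the K17KO peak (4.89-fold, 10 fragments) 2343 bp downstream of its start.

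Of the H3K4 demethylases, Kdm1b had a K17KO p53 peak 376 bp downstream of its start, with the same deposited fold (3.62), 13 fragments and q-value (0.0141) as the Men1 peak. Among readers, Phf2 had a WT p53 peak (4.59-fold, 9 fragments) 813 bp downstream of its start. Among methyltransferases of other lysines, Nsd1 had an H3K4me3 peak of 2.19-fold, 173 fragments over 78.5, above the fold of each of the members' 9 peaks.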
